A study of Mus musculus with 57 samples.

Results

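The nuclear genes for mitochondrial ribosomal proteins were followed through brown adipose tissue (BAT) and inguinal white adipose tissue (IngWAT) of mice carrying the Mfn2 R707W knock-in. A gene was a member if its symbol began with Mrpl or Mrps followed by a digit, if it was classed as protein-coding and if it was not named as a pseudogene. This gave 78 genes of the 52853 in the count tables, 49 named for the large subunit (Mrpl) and 29 for the small subunit (Mrps), and left out 5 entries named as pseudogenes. By ancestry, as grouped here, 46 members are counted as homologues of bacterial ribosomal proteins and 31 as particular to mitochondria. The second set holds Mrps18b, although its product is also a relative of bacterial protein S18. Mrps36 stands outside both sets because its product is now placed in the 2-oxoglutarate dehydrogenase complex, and Mrps30 and Mrps18a, although named for the small subunit, encode proteins of the large one.

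The mitochondrial ribosome translates the few messenger RNAs encoded by mitochondrial DNA, all of which specify membrane subunits of the respiratory chain and ATP synthase. Its ribosomal RNAs come from mitochondrial DNA, whereas every one of its proteins is encoded in the nucleus, made in the cytosol and imported. Brown adipocytes are packed with mitochondria and burn fuel for heat through Ucp1, while white adipocytes hold few mitochondria around a large lipid droplet.

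All mice were male and on a C57BL/6J background, and the knock-in (KI) line descended from 1 founder made by CRISPR-Cas9 editing. KI mice were homozygous for the R707W allele of Mfn2, the mitofusin that joins outer mitochondrial membranes, in every tissue, and wild-type (WT) mice did not carry it. Diets began at 5 weeks of age by the labels, although the study's legends name a later starting age, and lasted 6 months, either chow or a high-fat diet (HFD) with 45% of its energy from fat. BAT came from 6 WT and 6 KI mice on HFD, IngWAT on HFD from 8 WT and 8 KI mice, and IngWAT on chow from 7 WT and 6 KI mice. Whether BAT and IngWAT on HFD came from the same animals was not stated in the sources used here. The 41 samples may therefore come from fewer than 41 animals. Each sample is 1 column of counts, with totals between 8042591 and 25680411, and the members took between 0.263% and 0.8292% of these counts.

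Levels are given as CPM (counts scaled to a common library size adjusted by the trimmed mean of M values), and levels of different genes are compared as CPM per kilobase of exon. Differences are log2 fold changes from edgeR's quasi-likelihood test with standard error (SE), and a gene was called at a Benjamini-Hochberg adjusted p below 0.01 over all genes tested. In whole tissue, fewer cells of a type and less RNA per cell cannot be told apart. The 10 adipocyte markers were all present in every group, with summed levels of 24725 to 46248 CPM. Ucp1 lay between 4160 and 8509 CPM in BAT and did not exceed 1.77 CPM in any IngWAT library. Skeletal muscle markers, a sign of neighbouring muscle in the dissection, summed to more than 1000 CPM in 7 libraries, the largest being 59287 CPM in IngWAT chow KI mouse 4. Mfn2 itself, whose allele is edited but not deleted, ran from 346 to 380 CPM in BAT of WT mice and from 357 to 568 CPM in KI mice. Its log2 fold change was 0.29 (SE 0.11, edgeR adjusted p = 0.113) in BAT, 0.34 (SE 0.09, adjusted p = 0.0114) in IngWAT on HFD and 0.36 (SE 0.12, adjusted p = 0.0840) in IngWAT on chow, and none of these was called. The level of Mfn2 messenger RNA does not show the edit, so it does not check the genotype labels.

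Of the 78 members 77 passed the filter on low counts in every comparison. The exception was Mrpl53, a protein of the stalk base, which was listed at 0 counts in all 41 samples (chr6:83109040-83109939, GRCm38, as the tables give it). In the GENCODE vM21 gene models, whose exon lengths equal those in the count tables for all 78 members, 88.0% of the Mrpl53 exon bases (695 of 790) also belong to Gm42688, a protein-coding gene on the same strand. Gm42688 itself had 8 to 114 counts per mouse. Overlap with another gene touched the exons of 33 members in all, and in Mrps25, Mrps34 and Mrpl53 less than 50% of the exon bases belonged to that gene alone. The level of a member in such a place can therefore include or lack reads of its neighbour.

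Between members the levels spread widely. In BAT of WT mice the detected members ran from 4.40 CPM per kilobase for Mrpl19 to 358 for Mrpl34, with a median of 34.7. In IngWAT on HFD of WT mice they ran from 2.57 for Mrpl19 to 64.1 for Mrps21, with a median of 11.6. Mrpl34, Mrps21 and Mrpl12 had the highest mean TPM (a share of counts corrected for gene length) over the 6 groups, and Mrpl53, Mrpl19 and Mrps2 the lowest. Mrps21, a small protein of the small subunit, stood at 223 ± 35.0 CPM per kilobase (SD, n = 6) in BAT of WT mice and at 92.8 ± 10.7 (n = 7) in IngWAT on chow of WT mice. Mrpl12, which sits in the stalk and recruits translation factors, stood at 229 ± 31.2 and at 61.6 ± 9.38 in the same groups. Mrps12, the protein that lines the decoding centre, was lower than both, at 75.9 ± 9.19 and 40.0 ± 4.74 CPM per kilobase.

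The members also varied together from mouse to mouse. After each group's mean was taken away, the median Pearson correlation over 2926 pairs of members was 0.44 across the 41 samples. Split by gene name, it was 0.45 between Mrpl genes, 0.41 between Mrps genes and 0.44 between an Mrpl and an Mrps gene. These pairs share libraries, sequencing depth and tissue content, so the correlations are given as a description. Mrpl48 (r = 0.90 with the mean of the other members) and Mrps21 (0.89) kept closest to the rest. Mrps2 went the other way at -0.23 and Mrpl9 was near 0 at 0.13. Mrps18b, which returns in every comparison of genotype below, was also among the loosest at 0.34.

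Sums were taken by gene name, so the Mrps sum includes Mrps30 and Mrps18a of the large subunit, and Mrps36. Summed over the Mrpl genes, the WT groups measured 5243 ± 624 CPM (SD, n = 6) in BAT, 1680 ± 126 (n = 8) in IngWAT on HFD and 2305 ± 212 (n = 7) in IngWAT on chow. The Mrps sums were 2732 ± 312, 932 ± 69.2 and 1309 ± 133 CPM in the same order. Both sets of names thus kept one order of tissues and diets. The ratio of the Mrpl to the Mrps sum stayed between 1.67 and 1.98 in all 41 samples.

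**Figure D1:**
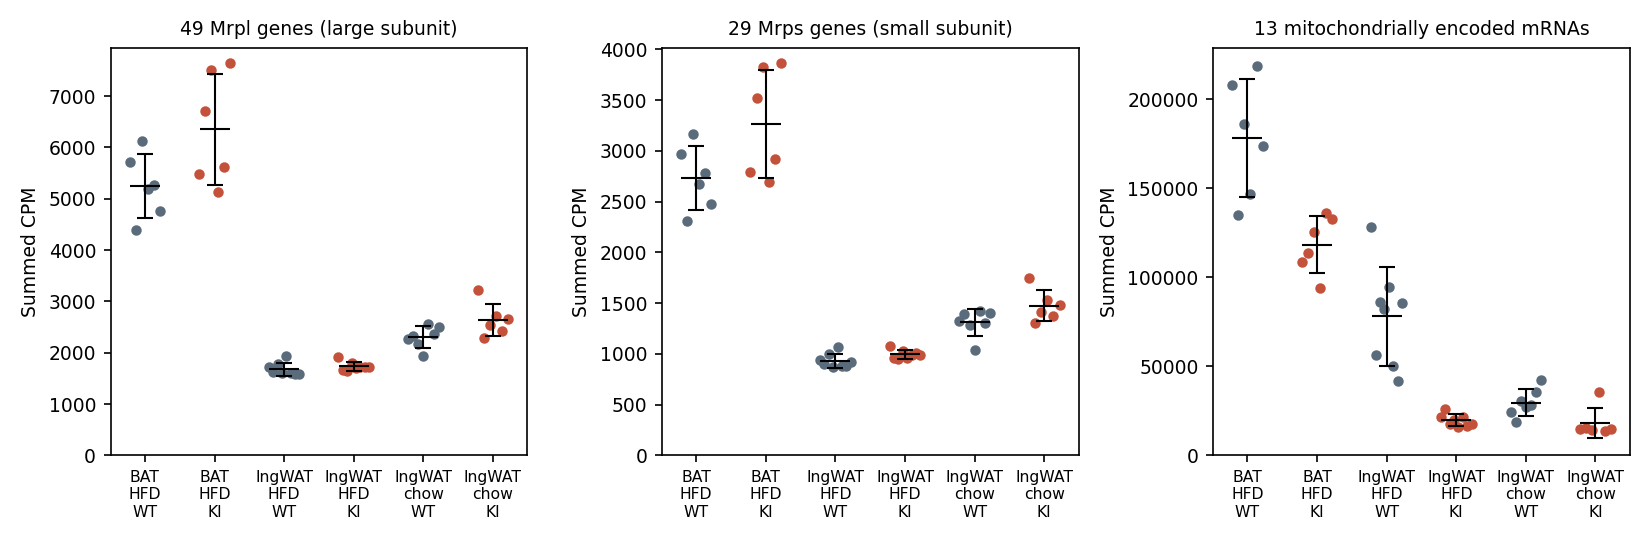
Summed CPM of the 49 Mrpl genes, of the 29 Mrps genes and of the 13 mitochondrially encoded mRNAs in each mouse, by tissue, diet and genotype; bars are the mean and SD. Both sets of nuclear genes are highest in BAT, with no IngWAT mouse reaching a BAT mouse, while the mean of the mitochondrially encoded mRNAs in IngWAT on HFD is 78091 CPM for WT and 19649 CPM for KI mice.

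BAT had far more of nearly every member than IngWAT on the same diet. In WT mice on HFD 76 of the 77 tested members rose in BAT, 0 fell, and 26.9% of all genes tested rose in the same test. Their median log2 fold change was 1.48, or 2.80-fold, and that of all genes tested was -0.09. KI mice gave the same count, 76 of 77, with 28.4% of all genes tested called higher and a median of 1.68 for the members. BAT and IngWAT were deposited as separate tables, so tissue and any batch of the tables cannot be told apart.

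Mrps36, the member whose product works outside the ribosome, showed the steepest difference. It ran from 8.95 through a median of 10.5 to 12.6 CPM in IngWAT of WT mice on HFD and from 123 through 152 to 201 CPM in BAT, so the tissues did not overlap. Its log2 fold change was 3.93 (SE 0.12, edgeR adjusted p = 8.61e-22). Mrpl34, a small protein of the large subunit, followed at 2.74 (SE 0.15, adjusted p = 5.96e-16), and Mrps24, of the small subunit, at 2.74 (SE 0.15, adjusted p = 9.43e-16).

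Mrps6, a small subunit protein with a bacterial homologue, was the one tested member not called. It read 47.5 to 116 CPM in BAT and 73.6 to 127 CPM in IngWAT of WT mice on HFD, ranges that overlap. The log2 fold change was -0.31 (SE 0.15, edgeR adjusted p = 0.0715). Only 80.1% of the Mrps6 exon bases belong to it alone, since on the same strand 19.9% are shared with the gene model Gm49711 and 10.4% with Slc5a3, a myo-inositol transporter that fell in BAT by 1.46 on the log2 scale (SE 0.25, adjusted p = 1.15e-05). How much of the Mrps6 value comes from reads of these neighbours was not tested. The next lowest were Mrpl40, of the central protuberance, at 0.39 (SE 0.12, adjusted p = 0.00577) and Mrpl32 at 0.52 (SE 0.11, adjusted p = 0.000223).

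Every structural group took part. All 30 tested large subunit members with bacterial homologues rose in BAT of WT mice, with a median log2 fold change of 1.57, and so did all 20 large subunit members particular to mitochondria, with a median of 1.25. In the small subunit 15 of 16 members with bacterial homologues rose (median 1.62) and 10 of 10 particular to mitochondria (median 1.34). The 3 tested stalk members rose with a median of 1.41, the 8 members around the exit tunnel with 1.22 and the 9 of the central protuberance with 1.25. Among preset members, Mrpl44 and Mrpl45, which line the exit where nascent chains meet the inner membrane, rose by 1.68 (SE 0.08, adjusted p = 1.77e-17) and 1.24 (SE 0.09, adjusted p = 1.34e-13) on the log2 scale. Mrpl58, a peptidyl-tRNA hydrolase built into the ribosome, rose by 1.20 (SE 0.15, adjusted p = 2.35e-08), and Mrps18a by 2.04 (SE 0.13, adjusted p = 1.03e-14).

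HFD and chow were compared within IngWAT. In WT mice 53 of 77 members fell on HFD, against 15.2% of all genes tested, 1 rose, and the median log2 fold change was -0.43 (0.740-fold) beside 0.04 over all genes tested. In KI mice 60 of 77 fell, against 15.4% of all genes tested, 0 rose and the median was -0.52. The diets, too, came as separate tables with different sequencing depth (8668279 to 11720458 counts a mouse on chow, 17572752 to 25680411 on HFD), so a batch cannot be told apart from diet.

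Mrpl14, a large subunit protein with a bacterial homologue, fell most. It ran from 32.0 through 48.7 to 58.1 CPM on chow and from 18.2 through 19.4 to 23.6 CPM on HFD in WT mice, without overlap, and its log2 fold change was -1.24 (SE 0.11, edgeR adjusted p = 1.18e-09). Mrps14 fell by 1.20 on the log2 scale (SE 0.08, adjusted p = 3.57e-11) and Mrps24 fell by 1.15 (SE 0.12, adjusted p = 3.2e-08). Mrps2, a small subunit protein with low counts, was the member that rose in WT mice. It read 7.01 to 8.16 CPM on chow and 8.61 to 16.3 CPM on HFD, without overlap, with a log2 fold change of 0.70 (SE 0.12, adjusted p = 2.65e-05). In KI mice Mrps2 gave 0.32 (SE 0.12, adjusted p = 0.0395) and was not called. Mrpl1 and Mrps22 completed the upper end in WT mice at 0.18 (SE 0.10, adjusted p = 0.144) and 0.10 (SE 0.11, adjusted p = 0.492), neither of them called.

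**Figure D2:**
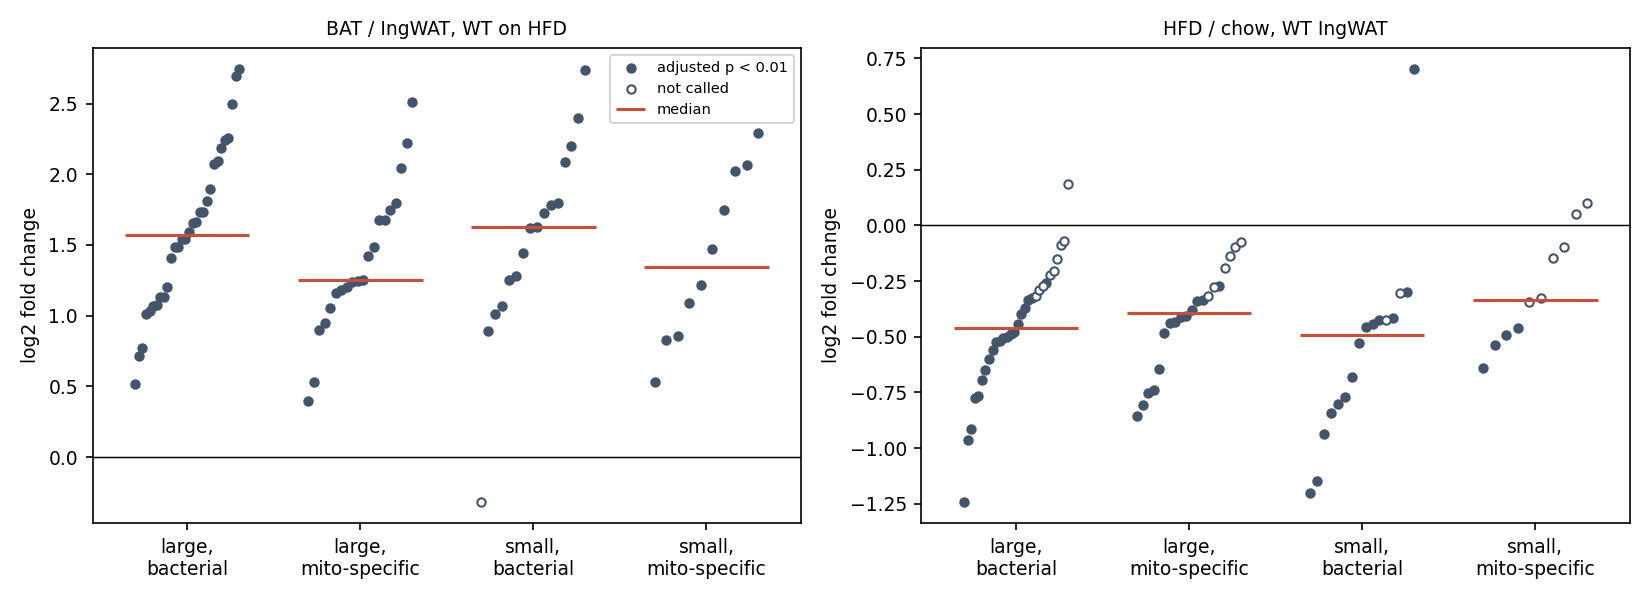
Log2 fold changes of the tested members, Mrps36 left aside, between BAT and IngWAT of WT mice on HFD (left) and between HFD and chow in IngWAT of WT mice (right), by subunit and ancestry; filled points passed adjusted p below 0.01, open points did not, and lines mark medians. Medians run from 1.25 to 1.62 on the left and from -0.49 to -0.33 on the right.

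Bacterial homologues and proteins particular to mitochondria both lay below 0 with HFD. Of the large subunit members in WT mice, 21 of 30 with bacterial homologues and 14 of 20 particular to mitochondria fell, with medians of -0.46 and -0.39. In the small subunit 13 of 16 homologues fell (median -0.49), and 4 of 10 particular to mitochondria (median -0.33). The central protuberance lost 8 of 9 members to lower levels and the exit tunnel 3 of 8. Mrpl12 fell by 0.60 (SE 0.13, edgeR adjusted p = 0.000601), Mrps12 fell by 0.80 (SE 0.11, adjusted p = 8.75e-07) and Mrpl44 fell by 0.81 (SE 0.08, adjusted p = 2.35e-09), all on the log2 scale. Mrpl45 was not called at -0.07 (SE 0.08, adjusted p = 0.487). The mitochondrially encoded mRNAs moved the other way in WT mice, where 12 of 13 rose on HFD with a median log2 fold change of 1.43, and in KI mice edgeR called 0 of 13 and the median was 0.03.

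The main comparison asked what the Mfn2 allele did to these genes. In all 3 settings most members lay slightly above WT in KI mice, and neither edgeR nor DESeq2 called any of the 77 lower, with 1, 7 and 1 lower at an unadjusted p below 0.05 in BAT, IngWAT on HFD and chow. In BAT 68 of 77 tested members had a positive fold change (88.3%, against 48.3% of all genes tested), with a median log2 fold change of 0.21, or 1.15-fold, beside -0.01 over all genes. In IngWAT on chow 66 of 77 were positive (85.7%, against 48.8%), with a median of 0.17. In IngWAT on HFD 50 of 77 were positive (64.9%, against 50.8%), with a median of 0.07. Members are not independent of each other, as the correlations above show, so these shares carry no test. Counts at an unadjusted p below 0.05, here and below, lack the share of all genes at that level. They therefore do not set the members apart from genes in general.

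Few single members passed. A log2 change of 0.3 was seldom called in simulated data, where the changed genes were drawn from all genes tested and not from the members. An uncalled member is not shown unchanged. In BAT 2 of 77 rose (2.60%), where 1.36% of all genes tested rose. On chow 3 of 77 rose (3.90%), where 1.96% of all genes tested rose. In IngWAT on HFD 9 of 77 rose (11.7%), where 6.21% of all genes tested rose. In BAT and on chow the counts are too small to set the members apart from genes in general. The share in IngWAT on HFD was not tested against that of all genes, and members are not independent. It does not set them apart either. Fewer members were called there in 1 fit of all 6 groups and without the muscle-rich libraries. DESeq2 called 7 members higher in BAT, where it called 3.01% of all genes with an adjusted p higher, 7 on chow, against 4.03%, and 13 in IngWAT on HFD, against 7.08%. Together 11 different members were called at least once, and Mrps18b was called in all 3 settings.

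**Figure D3:**
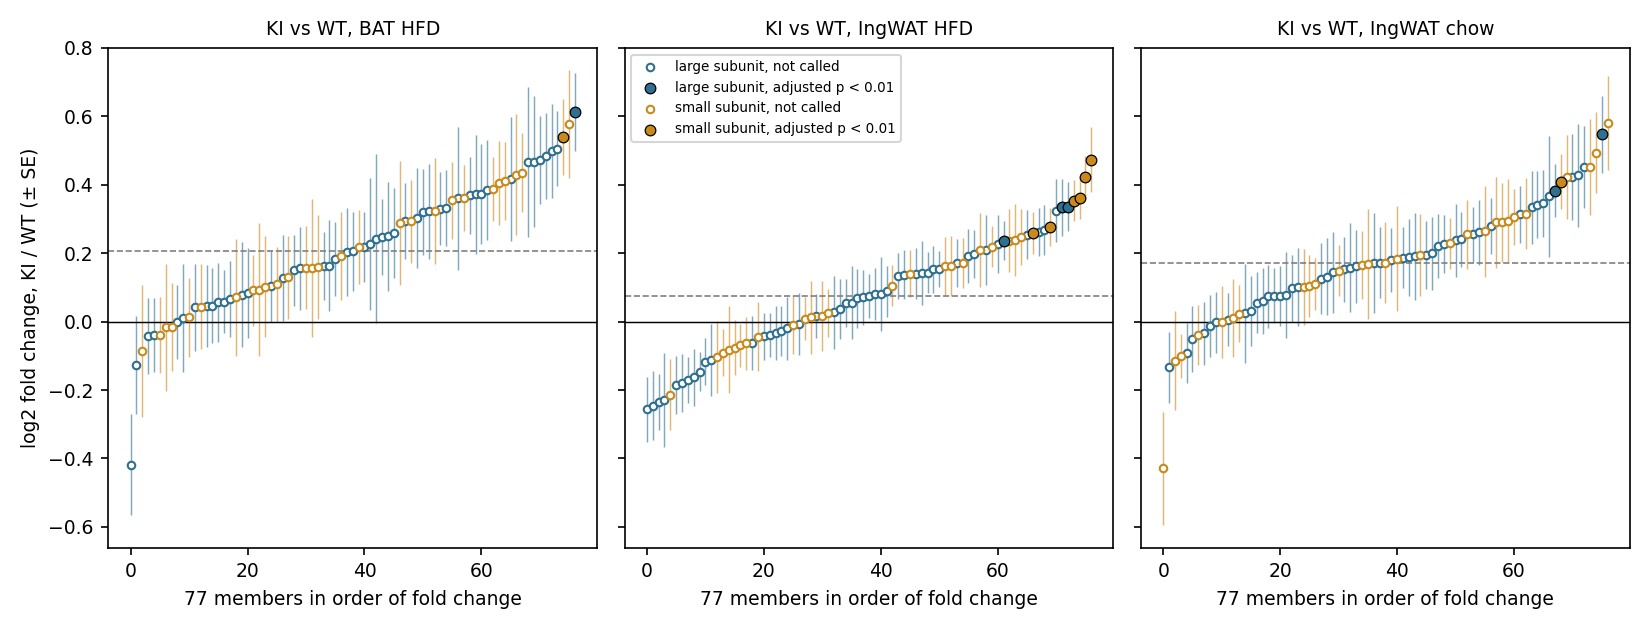
Log2 fold change with SE of each of 77 members of KI against WT mice, in order of size within each setting. Blue is the large and orange the small subunit by gene name, so Mrps30 and Mrps18a are orange. Filled points passed adjusted p below 0.01 and the dashed line is the median. Most points lie above 0 in BAT and on chow (68 and 66 of 77), fewer in IngWAT on HFD (50 of 77), and all filled points are above 0.

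Mrps18b (chr17:35910379-35916389, minus strand) encodes mS40, a member of the small subunit that is one of 3 mitochondrial relatives of bacterial protein S18. In BAT the WT mice ran from 48.1 through a median of 56.1 to 59.7 CPM and the KI mice from 66.6 through 79.3 to 108 CPM. In IngWAT on HFD the values were 22.6, 25.5 and 27.9 CPM in WT and 28.98, 32.6 and 36.0 CPM in KI mice, and on chow 21.8, 23.6 and 29.1 CPM in WT and 30.7, 31.9 and 38.2 CPM in KI mice. The genotypes did not overlap in any of the 3 settings.

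The log2 fold change of Mrps18b was 0.54 (SE 0.11, edgeR adjusted p = 0.00934) in BAT, 0.36 (SE 0.06, adjusted p = 0.000247) in IngWAT on HFD and 0.41 (SE 0.08, adjusted p = 0.00629) in IngWAT on chow. The call held in 16 of 16 refits that each left out 1 mouse in IngWAT on HFD, in 3 of 13 on chow and in 2 of 12 in BAT, while the fold change stayed between 0.33 and 0.60 over all of them. Gm16279, an antisense gene, covers 30.5% of the Mrps18b exon bases on the other strand, and the sources used here do not say whether counting used strand. Gm16279 had log2 fold changes of 0.36 (SE 0.13, adjusted p = 0.112), 0.33 (SE 0.05, adjusted p = 8.61e-05) and 0.37 (SE 0.09, adjusted p = 0.0203) in the same order, so reads of the pair cannot be told apart.

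Mrpl15 (chr1:4773206-4785739, minus strand), which encodes a large subunit protein with a bacterial homologue, was called in BAT and on chow. In BAT WT mice it read 90.4, 105 and 122 CPM (lowest, median and highest) against 133, 173 and 194 CPM in KI mice. On chow it read 28.9, 32.4 and 37.0 CPM in WT against 38.1, 45.0 and 47.0 CPM in KI mice. Neither pair of groups overlapped. The log2 fold changes were 0.61 (SE 0.11, edgeR adjusted p = 0.00486) and 0.38 (SE 0.08, adjusted p = 0.00726). The call of Mrpl15 held in 7 of 12 refits without 1 mouse in BAT and in 4 of 13 on chow, where it was also lost with no low-count filter and with a replicate block.

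On HFD, Mrpl15 in IngWAT ran from 24.0 through 27.3 to 33.6 CPM in WT and from 27.1 through 28.3 to 36.5 CPM in KI mice. The groups overlapped, and the log2 fold change was 0.07 (SE 0.08, edgeR adjusted p = 0.597). The difference of the KI effect between BAT and IngWAT on HFD was tested as an interaction, and Mrpl15 was the 1 member called in it, of 77, where 1.58% of all genes tested were called higher. Its interaction was 0.58 (SE 0.14, adjusted p = 0.00918), and it was called in 6 of 28 refits without 1 mouse, with values between 0.53 and 0.64. Over the members the median of that interaction was 0.19, and 62 of 77 were positive.

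The interaction of diet and genotype in IngWAT called 0 members by edgeR, 11 at an unadjusted p below 0.05 and 1 by DESeq2, where 0.632% of all genes tested were called in either direction by edgeR and 2.43% by DESeq2. The members' median was -0.08 beside 0.02 over all genes tested, 55 of 77 lay below 0, and 10 of the 11 at an unadjusted p below 0.05 were lower. The lowest values belonged to Mrpl12 at -0.52 (SE 0.19, adjusted p = 0.148) and to Mrpl16 at -0.45 (SE 0.12, adjusted p = 0.0347). Mrps5 gave 0.26 (SE 0.13, adjusted p = 0.317) and Mrps27 0.26 (SE 0.10, adjusted p = 0.144). No single member was thus shown to differ in its KI effect between the diets by edgeR.

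Among IngWAT calls on HFD the smallest adjusted p belonged to Mrps5 (chr2:127587222-127606829, plus strand), a small subunit protein at the messenger RNA entry that has a bacterial homologue. WT mice ran from 20.4 through 23.2 to 25.1 CPM and KI mice from 27.5 through 31.3 to 32.5 CPM, without overlap. The log2 fold change was 0.42 (SE 0.06, edgeR adjusted p = 6.1e-05). In BAT Mrps5 gave 0.01 (SE 0.11, adjusted p = 0.961), with WT values of 83.0 to 114 CPM inside KI values of 85.0 to 118 CPM but for the lowest, and on chow 0.17 (SE 0.12, adjusted p = 0.400). The interaction of tissue and genotype was -0.37 (SE 0.12, adjusted p = 0.0478) for this gene and was not called.

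Mrps15, Mrps27 and Mrps28 were the other small subunit proteins called in IngWAT on HFD besides Mrps18b and Mrps5. Mrps15, a homologue of bacterial S15, had 39.9, 47.3 and 68.2 CPM in WT and 61.7, 66.9 and 78.4 CPM in KI mice. WT mouse 3 at 68.2 CPM lay inside the KI range and the other WT mice below it. The log2 fold change was 0.47 (SE 0.09, edgeR adjusted p = 0.00144). On chow the 6 KI mice (75.8 to 121 CPM) all lay above the 7 WT mice (39.8 to 75.0 CPM), with a log2 fold change of 0.58, the highest of all members in that setting, and an adjusted p of 0.0172 that was not called.

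Mrps27, a protein particular to the mitochondrial small subunit that binds RNA, had 17.9, 20.3 and 21.1 CPM in WT and 22.3, 24.2 and 25.3 CPM in KI mice in IngWAT on HFD. These groups did not overlap, and the log2 fold change was 0.28 (SE 0.06, edgeR adjusted p = 0.00161). On chow Mrps27 gave 0.02 (SE 0.08, adjusted p = 0.896). On the other strand, 24.2% of the Mrps27 exon bases are shared with 6430562O15Rik. That gene gave 0.17 (SE 0.08, edgeR adjusted p = 0.155) in IngWAT on HFD. How much of the Mrps27 value comes from its reads was not tested. Mrps28 rose by 0.26 (SE 0.06, adjusted p = 0.00602) on HFD, with 18.6 to 24.4 CPM in WT and 23.7 to 27.5 CPM in KI mice, which overlap. That call held in 6 of 16 refits without 1 mouse and was lost with no low-count filter, in 1 fit of all 6 groups and with a replicate block.

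Mrps30 sits in the central protuberance of the large subunit despite its name. Its IngWAT level on HFD ran from 26.7 through 31.2 to 33.3 CPM in WT and from 32.9 through 38.4 to 41.7 CPM in KI mice, where KI mouse 2 at 32.9 CPM fell inside the WT range. Its log2 fold change was 0.35 (SE 0.06, edgeR adjusted p = 0.000327). In BAT the KI mice (80.1 to 112 CPM) lay above the WT mice (60.5 to 73.5 CPM) without overlap, yet with a log2 fold change of 0.36 (SE 0.10) the adjusted p was 0.0314 and the gene was not called.

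Mrpl23 of the exit tunnel, Mrpl55 of the central protuberance and Mrpl2 of the subunit core were the called proteins with a large subunit name in IngWAT on HFD. They rose by 0.34 (SE 0.07, edgeR adjusted p = 0.00207), 0.33 (SE 0.08, adjusted p = 0.00706) and 0.24 (SE 0.06, adjusted p = 0.00622) on the log2 scale. Mrpl23 had 28.2 to 36.8 CPM in WT and 35.7 to 47.0 CPM in KI mice, Mrpl55 had 16.6 to 22.4 and 20.4 to 29.6 CPM, and Mrpl2 had 31.0 to 40.4 and 38.6 to 43.8 CPM. In all 3 the groups overlapped at their edges. The calls of Mrpl55 and Mrpl2 held in 3 and 6 of 16 refits without 1 mouse, that of Mrpl23 in 16 of 16.

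**Figure D4:**
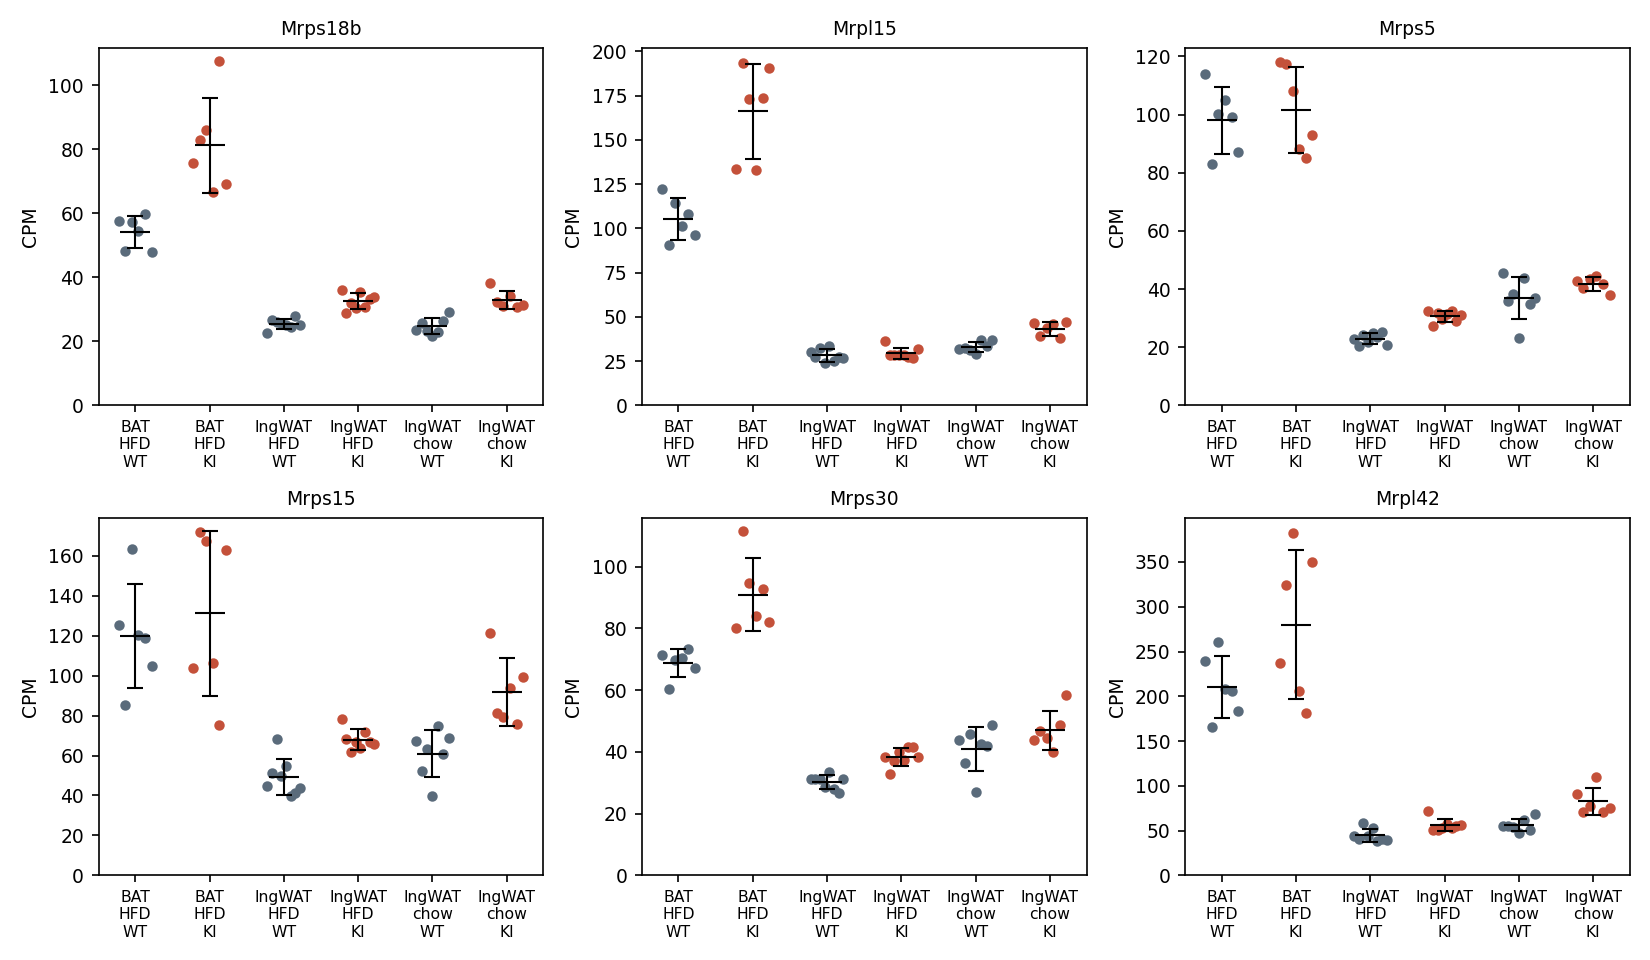
CPM of 6 members called in at least 1 comparison of KI with WT, in every mouse of the 6 groups, with mean and SD. KI points lie above all WT points of the same setting for Mrps18b in each of the 3 settings, for Mrpl15 in BAT and on chow and for Mrps5 in IngWAT on HFD.

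Mrpl42, of the large subunit and particular to mitochondria, was the other call on chow. The WT mice read 47.8, 54.7 and 68.4 CPM and the KI mice 70.8, 76.2 and 110 CPM, without overlap, with a log2 fold change of 0.55 (SE 0.11, edgeR adjusted p = 0.00776). The call of Mrpl42 held in 4 of 13 refits without 1 mouse and was lost with a replicate block. The KI mouse at 110 CPM was mouse 4, the library rich in muscle markers. Without the muscle-rich libraries 1 member was called on chow, 4 in IngWAT on HFD and 0 in BAT, and the medians were 0.17, 0.09 and 0.18.

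The lowest members of each setting did not pass the test. In BAT Mrpl18, a homologue of bacterial L18 in the central protuberance, ran from 92.6 to 125 CPM in WT and from 60.2 to 109 CPM in KI mice (log2 fold change -0.42, SE 0.15, edgeR adjusted p = 0.0940). Mrpl16 and Mrps2 followed at -0.13 (SE 0.14, adjusted p = 0.630) and -0.09 (SE 0.19, adjusted p = 0.824). Lowest in IngWAT on HFD were Mrpl41 at -0.26 (SE 0.10, adjusted p = 0.0649), Mrpl34 at -0.25 (SE 0.10, adjusted p = 0.0957) and Mrpl16 at -0.24 (SE 0.08, adjusted p = 0.0458). On chow Mrps6 gave -0.43 (SE 0.17, adjusted p = 0.124), Mrpl19 -0.13 (SE 0.10, adjusted p = 0.462) and Mrps36 -0.11 (SE 0.14, adjusted p = 0.674). At the upper end Mrps16 in BAT reached 0.58 (SE 0.16, adjusted p = 0.0358) and Mrps28 on chow 0.49 (SE 0.12, adjusted p = 0.0188) without being called.

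Split by gene name, the Mrpl and Mrps medians were 0.22 and 0.16 in BAT, 0.07 and 0.14 in IngWAT on HFD and 0.17 and 0.18 on chow. On HFD, 6 of 29 tested Mrps genes and 3 of 48 Mrpl genes rose in IngWAT, and at an unadjusted p below 0.05 edgeR gave 11 Mrps genes higher and 0 lower beside 14 Mrpl genes higher and 7 lower. The 6 Mrps calls include Mrps30, a protein of the large subunit, and whether the subunits differ was not tested. In IngWAT on HFD the ratio of the Mrpl to the Mrps sum was 1.80 ± 0.0338 (SD, n = 8) in WT and 1.74 ± 0.0281 (n = 8) in KI mice. It was 1.92 ± 0.0194 and 1.94 ± 0.0311 (n = 6 each) in BAT, and 1.76 ± 0.0689 (n = 7) and 1.79 ± 0.0330 (n = 6) on chow. On HFD in IngWAT this ratio was 1.727 in WT mouse 8, 1.788 to 1.830 in the other WT mice and 1.692 to 1.785 in the KI mice, so all WT mice but mouse 8 lay above every KI mouse.

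Promoter sequences were looked at because the members' levels correlated from mouse to mouse. Those correlations were not compared with pairs of other genes. RefSeq start sites on GRCm38.p6 were matched by symbol for 69 of the 78 members. In windows of 300 bases (250 before the start to 50 after), the letters CCGGAAG, the core bound by ETS factors such as GABP, stood on either strand in 26 of 69 members (37.7%) and in 13.4% of 16505 protein-coding genes. CGCATGCG, the core of the NRF1 site, which reads the same on both strands, stood in 7 (10.1%) against 2.88%, and AAGATGGC, the YY1 core, in 12 (17.4%) against 3.64%. No member's ETS and YY1 letters shared bases. The other letters searched were not more frequent among the members: CCAAT stood in 39.1% against 42.1%, TATAAA in 7.25% against 14.3%, CACGTG in 7.25% against 9.19% and TGATGNAA, the amino acid response element, in 0 of 69 against 4.00%. A match describes the letters and not binding, and no match in a window says nothing of the factor.

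Of the 11 members called between KI and WT mice, 9 had a window. Among them Mrpl42, Mrps18b and Mrps27 had an ETS, NRF1 or YY1 core. Mrpl2, Mrpl23, Mrpl55, Mrps15, Mrps30 and Mrps5 had none. At least 1 of these cores stood in 55.1% of all members with a window and in 18.3% of protein-coding genes. Windows of 3 small subunit genes are shown for their different makeup, each up to 30 bases past the start, with ETS, NRF1 and YY1 letters in capitals. Mrps18b, called in all 3 settings, has an NRF1 core far upstream, and its ETS core lies in the last bases of the window, after the stretch printed (chr17:35916411-35916690, minus strand). Mrps27 has an ETS and a YY1 core (chr13:99344536-99344815, plus strand). Mrps5, the call with the smallest adjusted p in IngWAT on HFD, has none of the 3 in its window (chr2:127587176-127587455, plus strand). By the coordinates given above Mrps5 starts at 127587222, so most of this stretch lies inside the gene. The Mrps18b stretch lies wholly upstream of that gene's end at 35916389. Windows at those coordinates were not searched.
Mrps18b: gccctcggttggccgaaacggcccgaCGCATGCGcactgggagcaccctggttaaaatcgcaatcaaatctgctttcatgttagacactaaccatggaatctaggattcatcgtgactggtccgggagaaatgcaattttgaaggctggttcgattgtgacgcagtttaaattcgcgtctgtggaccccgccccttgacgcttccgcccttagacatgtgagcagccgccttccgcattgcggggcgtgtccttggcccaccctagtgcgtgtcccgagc
Mrps27: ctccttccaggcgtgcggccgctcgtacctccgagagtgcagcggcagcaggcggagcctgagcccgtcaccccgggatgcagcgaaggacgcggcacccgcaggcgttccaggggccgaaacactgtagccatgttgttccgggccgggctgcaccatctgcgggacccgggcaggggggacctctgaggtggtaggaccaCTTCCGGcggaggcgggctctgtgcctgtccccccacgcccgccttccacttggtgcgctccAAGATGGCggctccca
Mrps5: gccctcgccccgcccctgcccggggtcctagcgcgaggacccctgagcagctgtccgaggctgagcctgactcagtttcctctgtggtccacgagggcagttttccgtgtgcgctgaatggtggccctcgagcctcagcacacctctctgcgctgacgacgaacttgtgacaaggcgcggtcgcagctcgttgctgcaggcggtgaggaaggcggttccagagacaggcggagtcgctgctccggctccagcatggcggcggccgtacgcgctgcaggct

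The genes around the ribosome gave a mixed background. The other 5 subunit genes outside the Mrp naming (Dap3, Chchd1, Aurkaip1, Ptcd3 and Gadd45gip1) had medians of 0.23, 0.10 and 0.20 in BAT, IngWAT on HFD and chow, and edgeR called 0 of 5 in any of them, with 1, 2 and 3 at an unadjusted p below 0.05 and 0, 0 and 1 called by DESeq2. Of 26 assembly factors 1 rose in each setting, and it was C1qbp, a matrix protein needed for mitochondrial translation. In BAT C1qbp ran from 133 through 162 to 173 CPM in WT and from 200 through 233 to 262 CPM in KI mice. The groups did not overlap there or on chow, and in IngWAT on HFD they overlapped only at 53.1 to 53.7 CPM. The log2 fold changes of C1qbp were 0.53 (SE 0.10, edgeR adjusted p = 0.00441) in BAT, 0.47 (SE 0.08, adjusted p = 0.000327) in IngWAT on HFD and 0.62 (SE 0.08, adjusted p = 0.000302) on chow.

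Of 18 translation factors tested, Lrpprc, which stabilises mitochondrial mRNAs, rose in IngWAT on HFD by 0.43 (SE 0.08, edgeR adjusted p = 0.000601) and on chow by 0.49 (SE 0.09, adjusted p = 0.00298) on the log2 scale, from WT means of 28.4 and 33.6 CPM to KI means of 38.0 and 47.4 CPM. Letm1, an inner membrane protein linked to the ribosome and to ion exchange, fell by 0.29 on the log2 scale in IngWAT on HFD (SE 0.08, adjusted p = 0.00996), from 80.7 ± 10.8 to 65.5 ± 4.18 CPM (SD, n = 8 each). In BAT edgeR called 0 of 18, with 1 at an unadjusted p below 0.05, and DESeq2 called 0. Of 12 regulators, among them Nrf1, Gabpa, Yy1, Ppargc1a and Esrra, edgeR called 0 in any of the 3 settings, with 4 in BAT, 4 in IngWAT on HFD and 1 on chow at an unadjusted p below 0.05, and DESeq2 called 2, 1 and 0.

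The messages that the ribosome reads had negative medians in all 3 settings, but not all of them passed the test. All 13 mitochondrially encoded mRNAs fell in IngWAT on HFD, with a median log2 fold change of -1.78 and a range from -2.17 for mt-Nd6 to -1.30 for mt-Atp8. In BAT 2 of 13 fell, mt-Co1 at -0.75 and mt-Nd4 at -0.94, with a median of -0.69. On chow edgeR called 0 of 12 tested, with 6 at an unadjusted p below 0.05 and 3 called by DESeq2, and the median was -0.51. These transcripts took 4.95% to 13.6% of all counts in WT and 1.96% to 3.22% in KI libraries of IngWAT on HFD, so their share could move the scaling of every other gene. With mitochondrially encoded genes left out of the fit, the members' medians were 0.20 in BAT, 0.07 in IngWAT on HFD and 0.16 on chow. The 2 mitochondrial rRNAs were called by edgeR in none of the 3 settings and their medians differed in sign, at 0.46 in BAT (1 higher at an unadjusted p below 0.05), -1.06 in IngWAT on HFD (2 lower) and 0.61 on chow (2 higher). By DESeq2 both fell in IngWAT on HFD and neither was called in BAT or on chow, while selection of polyadenylated RNA limits what their counts measure.

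**Figure D5:**
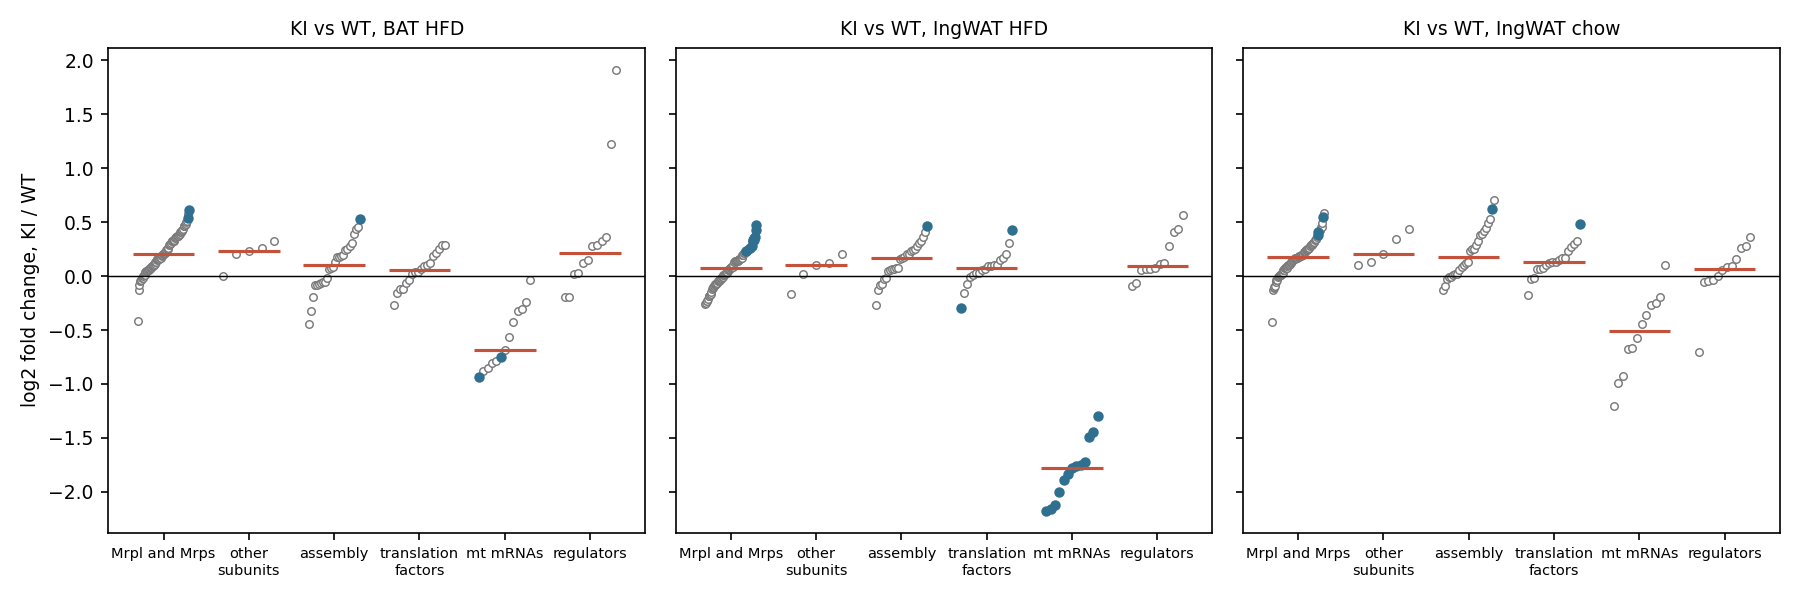
Log2 fold change of KI against WT for the members and 5 related gene lists in each setting; filled points passed adjusted p below 0.01 and red lines are medians. The mitochondrially encoded mRNAs lie far below 0 in IngWAT on HFD (median -1.78), where the members' median is 0.07.

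Markers of other cell types moved with some of these results. In IngWAT on chow the 8 brown adipocyte markers summed to 45.4 to 131 CPM in WT and 153 to 881 CPM in KI mice. These ranges did not overlap, while Ucp1, the defining marker, stayed at or below 0.893 CPM there. Only 5 of the 8 were tested on chow, with log2 fold changes from -0.70 for Ppargc1a to 3.02 for Cidea. Of these 5, 4 lay above 0 and edgeR called 2 higher. In IngWAT on HFD edgeR called 2 of 5 tested brown markers higher and 1 lower. Brown marker sums in WT and KI mice were 20.9 to 40.7 and 30.9 to 65.6 CPM in IngWAT on HFD, and 12356 to 18014 and 14314 to 22472 CPM in BAT. The 8 fibroblast markers summed to 500 to 1205 CPM in WT and 333 to 585 CPM in KI mice in BAT, with WT and KI medians of 2899.7 and 2100.3 CPM in IngWAT on HFD and 2494 and 1987 CPM on chow. Of the 8 macrophage markers, 8 had log2 fold changes below 0 between KI and WT mice in BAT, 7 in IngWAT on HFD and 8 on chow, with medians of -0.51, -0.34 and -0.62, and edgeR called 0, 1 and 0 of them lower. Between tissues of WT mice on HFD, 8 of 8 macrophage and 7 of 8 fibroblast markers were called lower in BAT than in IngWAT and 8 of 8 brown markers higher. In IngWAT on chow WT mouse 4 had the lowest member sum, 2962 CPM. That library also had its group's highest sums of macrophage (1966 CPM), lymphocyte (162 CPM) and epithelium markers (152 CPM), each of 8 genes. The group medians were 648, 35.1 and 2.30 CPM in the same order. Lymphocyte sums reached 579 CPM in IngWAT HFD WT mouse 2, 804 CPM in IngWAT HFD KI mouse 2 and 482 CPM in IngWAT chow KI mouse 3. The part of these cell types in the members' levels was not tested.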

How the data were processed

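RNA of 41 tissue samples, each from 1 mouse, was read as polyA-selected paired-end libraries of 150 bases. Per the labels and the study's methods, the authors used cutadapt for trimming, STAR for alignment against GRCm38 and SAMtools for sorting, and deposited raw gene counts from featureCounts, 1 table per tissue and diet. Tool versions, annotation and strand setting are not given in the sources used here. IngWAT on HFD was sequenced as 2 technical libraries a mouse and deposited as 1 column a mouse, which counts as 1 replicate.

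Each table held 54838 entries. Entries without a length or a count (1884) were left out, and 99 symbols shared by 200 entries with identical counts were kept once. Genes passing filterByExpr were scaled by TMM and tested with robust quasi-likelihood fits in edgeR 4.0.16 (R 4.3.3). P-values were adjusted over all genes tested and genes called below 0.01. Tests between tissues or diets joined 2 tables in 1 fit. The test code was tested on simulated data, with the changed genes drawn at random from all genes tested. The rates that follow are thus not those of the members. Log2 changes of 0.3 were called in 0 of 50 genes (BAT), 2 of 49 (IngWAT on HFD) and 0 of 48 (chow). Changes of 0.5 were called in 6.12%, 26% and 4.17% in that order, and changes of 1 in 66%, 72% and 52%. CPM used a pseudocount of 0.5 on the log scale.

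The members and gene lists were chosen with earlier results of these data known. Named members are those called between genotypes or in an interaction, the 3 highest and 3 lowest fold changes in each genotype comparison and in the WT tissue and diet comparisons, the 3 highest and 3 lowest by mean TPM, and 8 preset for their roles (Mrpl12, Mrps12, Mrpl44, Mrpl45, Mrpl58, Mrps30, Mrps18a and Mrps36). Members named outside this rule (Mrpl48, Mrpl9, Mrps25 and Mrps34) were chosen after their values were seen. Alternatives were DESeq2 1.42.0, other size factors, filters and thresholds, mitochondrial genes left out, a replicate block, 1 fit of all groups and each mouse left out. Leaving out muscle-rich libraries was chosen after seeing the data. Replicates within a group are separate mice, as the labels give them, while the same animal may stand in BAT and IngWAT on HFD.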

Additional observations from a re-analysis of the deposited data

Results flagged for a closer look

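Gaps between the extreme mouse and its neighbour were compared with Dixon's critical values for 90 combinations of a measure and a group, and 4 passed, where chance passes about 1 in 20. Mrpl42 stood at 71.88 CPM in IngWAT HFD KI mouse 1, and the next mouse at 57.04 CPM. The ratio of the Mrpl to the Mrps sum was lowest in IngWAT HFD WT mouse 8 at 1.727, with the next mouse at 1.788.

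The share of mitochondrially encoded mRNAs reached 3.218% in IngWAT HFD KI mouse 2, with the next at 2.482%. In IngWAT chow KI mouse 4 it reached 3.368%, with the next at 1.763%, and this is the library with 59287 CPM of muscle markers. The part of muscle in that share was not tested.

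The KI effect on Mrpl15 was called different between BAT and IngWAT on HFD, with an interaction of 0.5831 on the log2 scale (edgeR adjusted p = 0.00918). That call held in 6 of 28 refits without 1 mouse. It was lost with no low-count filter, with a replicate block and without the muscle-rich libraries. All 6 KI mice lay above the WT mice in BAT, and 1 of 8 did in IngWAT.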

How the results depend on the processing

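The medians of the members' log2 fold changes kept their direction in every alternative run. Leaving out 1 mouse at a time, they ranged from 0.17 to 0.26 in BAT, 0.05 to 0.10 in IngWAT on HFD and 0.13 to 0.21 on chow. Counts of called members were less stable, and the cause was not tested. Apart from the DESeq2 shares above, the shares of all genes called in these alternatives are not given. The counts thus show only how far the calls moved. In BAT (2 members) they were 11 at an adjusted p below 0.05, 0 at 0.001, 7 with DESeq2, 1 with RLE size factors, 1 with mitochondrial genes left out, 15 in 1 fit of all 6 groups and 0 without the muscle-rich libraries (BAT WT mice 1 and 2). In IngWAT on HFD (9) they were 17 at 0.05, 3 at 0.001, 4 in 1 fit and 4 without the muscle-rich libraries (WT mice 1 and 2, KI mice 3 and 5). On chow (3) they were 13 at 0.05, 0 at 0.001, 7 with DESeq2, 1 with no low-count filter, 7 in 1 fit and 1 without KI mouse 4, which is rich in muscle markers. For the tissue interaction (1) they were 6 at 0.05, 0 at 0.001, 2 with DESeq2, 0 with no filter, 2 with at least 10 counts in every mouse, 2 in 1 fit and 0 without the muscle-rich libraries. For the diet interaction (0) they were 1 at 0.05 and 1 with DESeq2.

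Without 1 mouse the count in BAT ranged from 0 to 3. It was 0 without WT mouse 2, 4 or 6 or KI mouse 2 or 3, and 1 without WT mouse 1, 3 or 5. In IngWAT on HFD it ranged from 6 to 11. On chow it ranged from 0 to 3, with 0 without WT mouse 1, 2, 3, 4 or 6 or KI mouse 1 or 6, and 1 without WT mouse 5 or KI mouse 3 or 4. The tissue interaction ranged from 0 to 3, with 3 without BAT KI mouse 4, 2 without BAT WT mouse 1, BAT KI mouse 1 or IngWAT WT mouse 4, and 0 with each of 20 others left out in turn. Those others are BAT WT mice 2 to 6, BAT KI mice 2, 3 and 6, IngWAT WT mice 1, 2, 3, 5, 7 and 8 and IngWAT KI mice 3 to 8. The diet interaction ranged from 0 to 1, with 1 without IngWAT HFD WT mouse 8.

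Replicate numbers were not taken to pair the mice in the main tests. Same-numbered WT and KI deviations correlated at -0.17 to 0.60 in BAT, -0.34 to 0.65 in IngWAT on HFD and -0.54 to 0.24 on chow. The KI mouse of the same number correlated best for 3 of 6, 1 of 8 and 1 of 6 WT mice in that order. Between BAT and IngWAT on HFD the correlations ran from -0.05 to 0.21 in WT and -0.11 to 0.06 in KI mice. The best match had the same number for 1 of 6 and 0 of 6 BAT mice. These values do not settle whether numbers mark pairs or shared animals. With a replicate block the counts were 2, 7, 0 and 0 for BAT, IngWAT on HFD, chow and the tissue interaction. Without a low-count filter the median of all genes moved by -0.21 (WT) and -0.24 (KI) between tissues, and the members' medians there were 1.43 and 1.62.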
